A study of Mus musculus with 22 samples.

Results

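The 4152 regions described here are stretches of open chromatin that were listed in normal mouse liver and had no counterpart in regressing hepatoblastoma at days 14, 33 and 64 after its driver YAP1 was switched off. They were chosen by position alone: intervals of the liver list on chr1 to chr19 and chrX, at least 50 bp wide, that shared no base with an interval of any of the 3 OFF lists. They made up 1.17% of the 353408 liver intervals of that width, and the other 349256 overlapped an OFF interval. The rule used the 4 lists, so every count of regions below is a description, without a test. What the rule did not use was the list of the tumor with YAP1 on and the RNA. The absence of an interval was not a measurement of closed chromatin: 14.2% of the regions had an OFF interval 1 to 10 bp away and 37.5% had 1 at 11 to 100 bp, while 21.9% (911 regions) had none within 500 bp.

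Mouse hepatoblastoma, the counterpart of a childhood liver tumor, was followed as it turned into hepatocyte-like cells called hbHep once YAP1 was off. Open chromatin was mapped by Omni-ATAC, which tags DNA of nuclei where a transposase can reach it, in 1 library each of liver labeled WT, of tumor with YAP1 on (YAP1on), and of days 14, 33 and 64 with YAP1 off (D14, D33, D64). The sources used here do not give strain, sex and genotype of these ATAC mice. RNA was measured in other samples. They were 4 hepatoblastoma tumors on doxycycline (YAP1on tumors) and 4 tumors 6 days off doxycycline (day 6 tumors), both from B6N.FVB(Cg) mice with the transgene Tg(CAG-rtTA3)4288Slowe/J, which expresses the doxycycline-dependent activator rtTA3 from the broadly active CAG promoter, with 1 mouse code for each group of 4. The others were liver of 3 hbHep mice at days 121, 114 and 117 and liver of 3 mice on NTBC (FAH liver). hbHep and FAH liver mice all carried FAH Delta Exon 5, a deletion in the last enzyme of tyrosine breakdown, which NTBC, a blocker of an earlier step, makes survivable. No RNA of days 14, 33 or 64 was analysed here, and liver meant a WT mouse for chromatin but FAH liver for RNA. Between tumors and liver, effects of mouse, strain or treatment cannot be told apart. The sample labels name NTBC for FAH liver only, so between hbHep and FAH liver an effect of NTBC cannot be told apart either.

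Hepatocytes differ along the liver lobule. Those near the portal vein, where oxygen-rich blood enters, make urea and glucose and break down amino acids such as serine, glycine and histidine. Those near the central vein, under Wnt and beta-catenin signals, make glutamine and carry many drug-metabolizing cytochromes P450. Liver also holds Kupffer cells, its resident macrophages, and endothelial cells that line the sinusoids. Both ATAC and RNA libraries were made from tissue, so fewer cells of a type and less signal per cell cannot be told apart.

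Promoters were rare among the regions, and 5 of them are printed to show what such a region covers. They are the 250 bases before the start site in RefSeq (GRCm38.p6, the assembly behind mm10), 5′ to 3′ on the gene's strand, with the bases inside a region in capitals. Clec4f (chr6:83656117-83656366, minus strand), a lectin of Kupffer cells, had 3 regions there, more than 17 kb from any OFF interval. Slc13a2 (chr11:78422235-78422484, minus strand), a sodium-coupled carrier of dicarboxylates, had 2. Tlr13 (chrX:106143025-106143274, plus strand), a mouse receptor for bacterial ribosomal RNA, Igsf6 (chr7:121074531-121074780, minus strand), an immunoglobulin family protein of myeloid cells, and S100a11 (chr3:93520246-93520495, plus strand), a calcium-binding protein, had 1 each. They were picked after their values were seen, as promoters whose RNA lay lower (Slc13a2), higher (Tlr13, Igsf6, S100a11) or unresolved (Clec4f) in hbHep.
Clec4f: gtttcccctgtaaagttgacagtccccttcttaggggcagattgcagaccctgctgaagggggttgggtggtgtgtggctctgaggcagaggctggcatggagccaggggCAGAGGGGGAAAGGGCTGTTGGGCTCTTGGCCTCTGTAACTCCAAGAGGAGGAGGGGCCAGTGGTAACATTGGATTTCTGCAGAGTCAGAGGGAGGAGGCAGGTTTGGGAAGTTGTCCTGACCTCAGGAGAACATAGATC
Slc13a2: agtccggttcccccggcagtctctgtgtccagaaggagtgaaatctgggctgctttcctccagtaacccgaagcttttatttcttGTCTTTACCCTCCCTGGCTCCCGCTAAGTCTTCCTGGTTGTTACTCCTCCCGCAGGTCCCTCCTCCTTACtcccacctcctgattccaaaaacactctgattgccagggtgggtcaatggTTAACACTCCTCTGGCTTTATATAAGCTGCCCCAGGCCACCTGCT
Tlr13: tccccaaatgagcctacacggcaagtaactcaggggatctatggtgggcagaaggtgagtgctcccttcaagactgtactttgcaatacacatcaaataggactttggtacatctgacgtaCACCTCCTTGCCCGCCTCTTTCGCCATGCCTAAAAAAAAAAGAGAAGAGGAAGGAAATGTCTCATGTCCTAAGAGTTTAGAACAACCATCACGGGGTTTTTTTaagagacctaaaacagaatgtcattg
Igsf6: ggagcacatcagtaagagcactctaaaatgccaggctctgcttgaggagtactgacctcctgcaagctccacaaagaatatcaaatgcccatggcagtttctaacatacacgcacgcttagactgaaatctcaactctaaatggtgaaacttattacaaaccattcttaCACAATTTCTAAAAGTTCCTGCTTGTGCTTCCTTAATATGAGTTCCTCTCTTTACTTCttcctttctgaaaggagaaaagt
S100a11: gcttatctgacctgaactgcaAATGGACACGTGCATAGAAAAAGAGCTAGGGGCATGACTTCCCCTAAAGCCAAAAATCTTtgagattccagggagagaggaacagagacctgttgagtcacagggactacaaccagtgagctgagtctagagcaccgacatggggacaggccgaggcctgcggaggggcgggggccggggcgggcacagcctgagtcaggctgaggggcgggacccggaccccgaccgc
The sequences show how narrow the regions were: 79 to 135 bp in Clec4f, 65 and 70 bp in Slc13a2, 103 bp in Tlr13, 58 bp in Igsf6 and 60 bp in S100a11. The OFF lists came within 39 bp of the Slc13a2 regions, 11 bp of that of Tlr13, 1 bp of that of Igsf6 and 21 bp of that of S100a11.

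The Tlr13 region held GAGGAAG, a core that PU.1, a master regulator of myeloid cells, is known to bind. The printed bases of the other promoters, those of Igsf6 and Clec4f included, did not hold it on either strand. Over both strands, GAGGAAG stood in 13 of the 59 promoter windows (250 bases before to 50 after the start) that a region touched (22.0%), in 12.7% of the 12181 windows touched by any liver interval and in 13.3% of all 21044 windows. It was added after genes such as Syk and Btk were seen among the results. Of the motifs listed earlier, TGANTCA (AP-1) stood in 11.9% of the 59 windows, 4.75% of those touched by any liver interval and 7.04% of all. CCGGAAG (ETS) stood in 10.2%, 18.2% and 11.7%, GGGCGGG (SP/KLF) in 33.9%, 48.7% and 34.2%, TTGCNNAA (CEBP) in 3.39%, 8.31% and 10.3%, and CTTTGAT (TCF/LEF) in 1.69%, 2.47% and 3.25%. For ETS and SP/KLF the 59 windows thus lay near all windows but below those touched by any liver interval. CAAAGTCCA (HNF4A), TGTTTAC (FOXA), GTTAATNAT (HNF1), TTCNNNGAA (STAT), TCAAGGTCA (NR5A2), ACATTCC (TEAD) and CNAGGGGGC (CTCF) were in 0 of the 59 windows, in 0.213% to 6.68% of those touched by any liver interval and in 0.337% to 7.76% of all windows. The ETS and PU.1 letters share the run GGAAG, but neither contains the other. Some genes, such as Ifitm10, gave overlapping windows that were each counted.

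The regions were narrow and sat away from promoters. Their median width was 62 bp (51 to 93 bp from the 10th to the 90th percentile, 173 bp at most), against 81 bp for the other liver intervals. The share of liver intervals without an OFF overlap fell steadily with width, from 3.07% at 50 to 59 bp through 1.44% at 60 to 74 bp, 0.738% at 75 to 99 bp and 0.352% at 100 to 149 bp to 0.107% at 150 to 199 bp. None of the 5830 intervals of 200 bp or more lacked an OFF overlap. At the edge of the rule, 4.39% of liver intervals of 50 bp and 4.66% of those of 49 bp had no OFF overlap, and 1092 intervals stayed outside by an overlap of 1 to 10 bp with the OFF interval that covered most of them. A total of 271 regions (6.70% of the 4046 that could be measured) lay within 1 kb of a protein-coding start site, against 23.8% of the other liver intervals, while 60.5% and 65.6% lay within a gene. Regions that overlapped another region numbered 406 (9.78%), since liver intervals could overlap each other. The liver list was the smallest of the 4 lists of like format: it covered 36.6 Mb, against 70.7 Mb at D14, 57.4 Mb at D33 and 55.6 Mb at D64.

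The YAP1on list, which had no part in the rule, also left most of the regions out. Of the 4152 regions, 518 (12.5%) overlapped a YAP1on interval, against 56.9% of the other liver intervals. The gap was there at each width: 12.1% against 44.5% at 50 to 59 bp and 11.6% against 66.2% at 100 to 149 bp. The YAP1on list was of another make, with a median width of 21 bp and only 2.62% of its intervals at 50 bp or more, so these shares compare lists of different format from 1 library each.

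**Figure D1:**
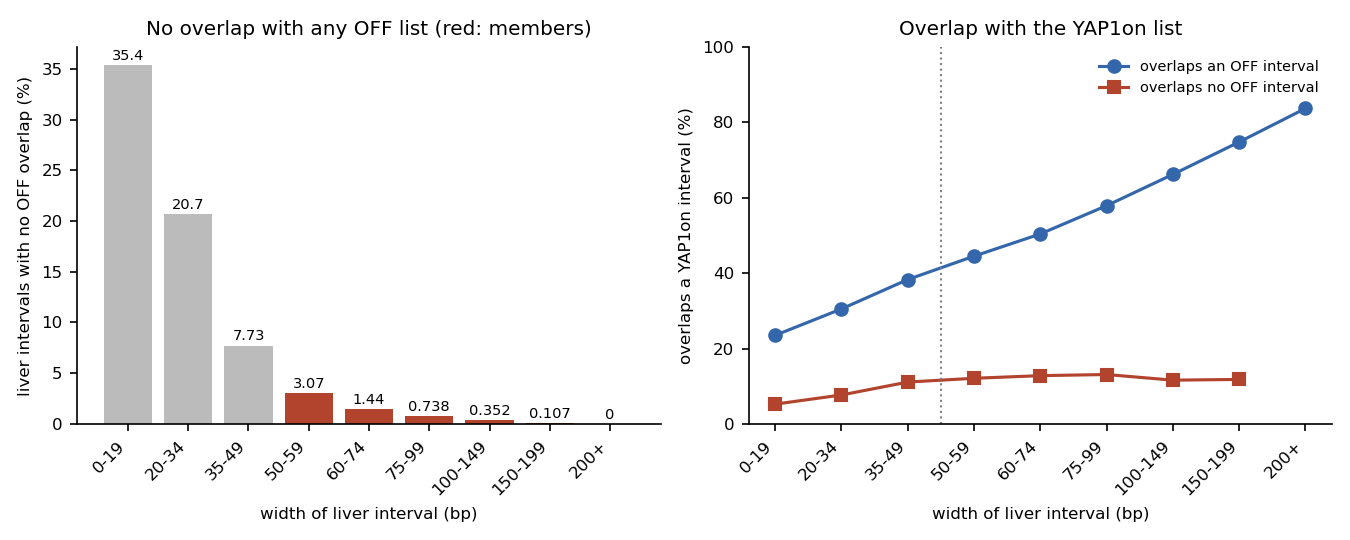
Left, the percentage of liver intervals with no overlap in any OFF list, by interval width in bp; red bars are the regions described here and grey bars the narrower intervals that the rule left out. Right, the percentage of liver intervals that overlap a YAP1on interval, for intervals with (blue) and without (red) an OFF overlap; right of the dotted line, at 50 bp and above, the red points stay between 11.6 and 13.1% while the blue points rise from 44.5 to 83.7%.

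Most regions stood alone, and a few loci held many. Joined wherever they lay at most 5 kb apart, the regions formed 3202 groups, of which 2562 were single regions and 29 had 5 or more (216 regions together). Here and below, liver intervals counted in a group, near a gene or at a start site were only those of at least 50 bp. The group with most regions, chr5:120476214-120485738, ran along the whole of Sds into Plbd2 and held 27 regions among 68 liver intervals. Next came 22 of 95 at Cth (chr3:157891417-157920770) and 12 of 16 beside Clec4f (chr6:83631921-83643423). Rcsd1, Lcp2 and Cyp2f2 each had a group of 8, and Cyp2f2 had another of 6. At Lcp2, an adaptor of T-cell and myeloid signaling, the 8 regions were all the liver intervals of at least 50 bp in an 863 bp stretch. They lay more than 500 bp from any OFF interval.

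The 10 widest regions measured 163 to 173 bp. Sds held 2 of them (chr5:120477088-120477260 and chr5:120478205-120478371, at 303 and 78 bp from the nearest OFF interval), and Gldc held 1 (chr19:30170639-30170801), which overlapped a YAP1on interval. The widest, chr17:3490355-3490527, in the Rac activator gene Tiam2, lay 3 bp from a D64 interval but 1879 bp from D14. The region chr3:11035910-11036078 was 169 bp wide and 84829 bp from any OFF interval, in a gene desert 595779 bp from Snx16. Genes with a known start site were ranked by bases of region within 10 kb of it. The leading ones were Cyp2f2 (559 bases), Ifitm10 (458), Clec4g (362), Tmem132e (321) and Clec4f (318). Sds, Sdsl, Plbd2, Cth and Gls2 had no known start site and could not enter this ranking.

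More of the regions lay near periportal than near pericentral genes. Within 10 kb of the 22 periportal genes, 76 of 2410 liver intervals (3.15%) were among the regions, and 14 of the 22 genes had at least 1. Those counted for Sdsl were all among those of Sds. Sds with its neighbour Sdsl, and Cyp2f2, carried much of that share: near the other 19 genes it was 35 of 2248 (1.56%), with a region at 11 of the 19. Within 10 kb of the 26 pericentral genes it was 1 of 1347 (0.0742%), near Tnfrsf19. Over all 21627 protein-coding genes the share was 1.03%, and 10.2% of the genes had a region. The 32 genes of cytochrome P450 and drug metabolism had none among 1034 liver intervals. Each value rests on 1 library a group, and the lists of genes were chosen with earlier results of these data known.

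Near periportal genes, the D64 list left out far more liver intervals than D14 or D33. Of the liver intervals near periportal genes, 6.51% had no D14 overlap, 9.13% no D33 overlap and 50.5% no D64 overlap. Over all genes these shares were 4.11%, 3.54% and 5.34%, and near pericentral genes 3.86%, 0.742% and 0.445%. Cps1, which starts the urea cycle, had 665 liver intervals within 10 kb. Of these 3 were missing at D14, 39 at D33 and 530 at D64, so that only 2 were missing from all. Ass1, the next step of the cycle but for Otc, had 457, with 0, 4 and 301 missing and none missing from all. Not every gene did so: of the 49 near Gldc, 20 were missing at D14, 19 at D33 and 7 at D64. Of the 62 near Cyp2f2, these numbers were 25, 21 and 23. In bases covered around Cps1, the liver list had 63531, D14 92398, D33 61603, D64 6222 and YAP1on 9051. Around Glul, the glutamine synthetase of pericentral cells, the order was different: 10001 bases in liver, 14489 at D14, 16578 at D33, 17249 at D64 and 1234 in YAP1on.

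**Figure D2:**
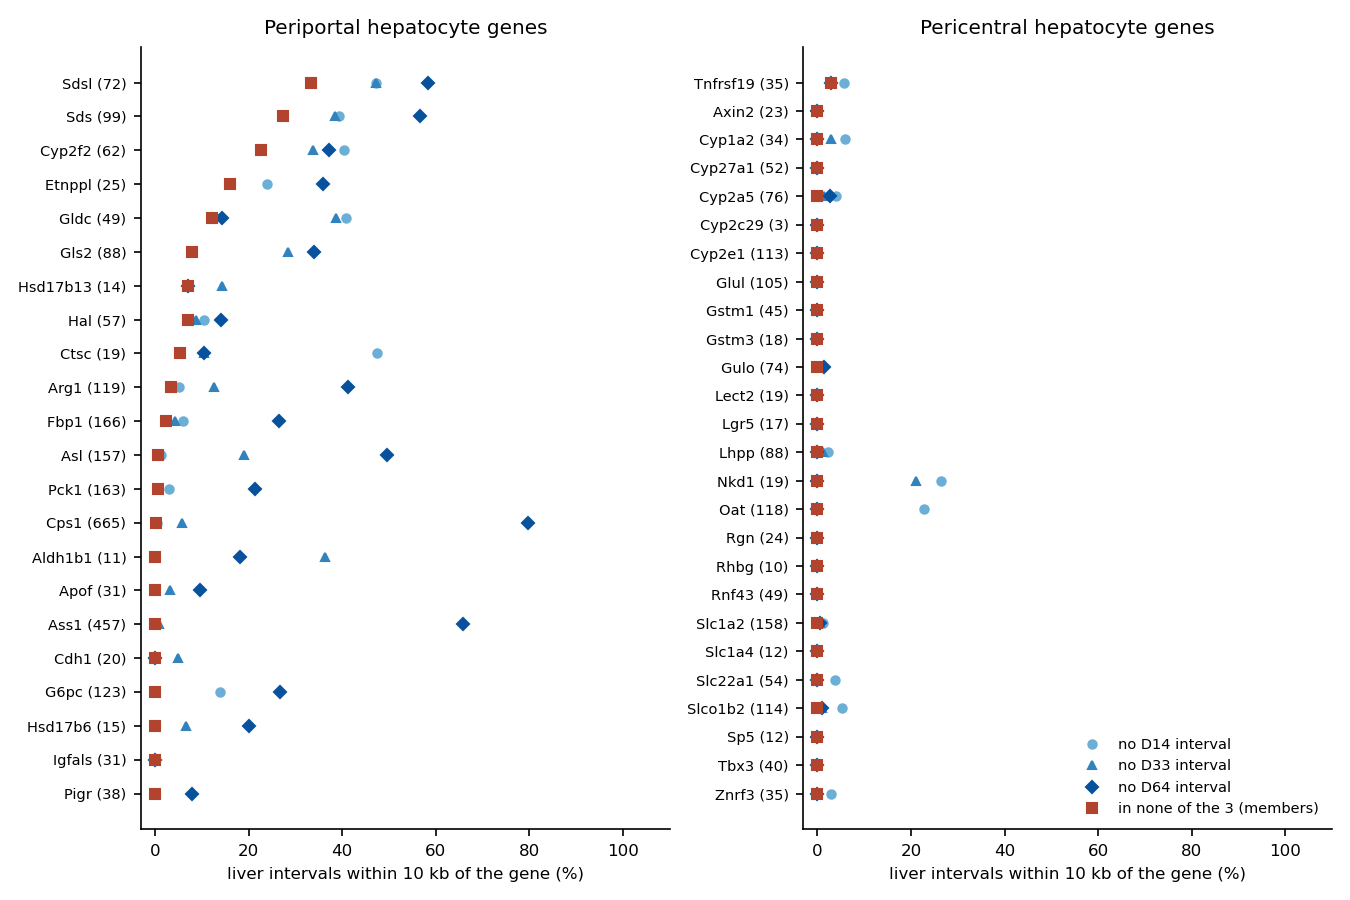
Percentage of the liver intervals within 10 kb of each periportal (left) or pericentral (right) gene that overlap no interval of D14, D33 or D64, or of none of the 3 (red squares); the number of liver intervals stands after each symbol. Sdsl, Sds and Cyp2f2 have 33.3, 27.3 and 22.6% of their liver intervals in none of the 3 lists, with those of Sdsl all shared with Sds. Cps1 and Ass1 lose most of theirs only at D64, and 25 of 26 pericentral genes have no such interval.

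Serine breakdown was the locus with most regions. Sds (ENSMUSG00000029597, chr5:120476547-120483932) encodes serine dehydratase, which turns serine into pyruvate, and its neighbour Sdsl (ENSMUSG00000029596, chr5:120458193-120472825) encodes a related enzyme. Of 99 liver intervals within 10 kb of Sds, 27 were among the regions, 39 lacked a D14, 38 a D33 and 56 a D64 overlap. All 27 lay within 500 bp of some OFF interval, and 1 overlapped YAP1on. Covered bases were 10441 in liver, 4469 at D14, 5134 at D33, 2948 at D64 and 1395 in YAP1on. Sds RNA, in abundance (the authors' scaled reads per base, rescaled between libraries), was 12320, 9387 and 12300 in FAH liver and 1105, 416.3 and 1781 in hbHep. It was 384.2, 547.6, 327.4 and 340.1 in day 6 tumors and 324.8, 516.5, 346.8 and 161.5 in YAP1on tumors. All samples of the other 3 groups lay below every FAH liver. On the log2(abundance + 1) scale Sds was lower by limma in hbHep (-3.59, SE 0.44, adjusted p = 1.59e-05), day 6 tumors (-4.84, SE 0.41, adjusted p = 1.14e-07) and YAP1on tumors (-5.17, SE 0.41, adjusted p = 2.98e-08). Sdsl RNA averaged 723.9 ± 103 in FAH liver, 116.4 ± 40.0 in hbHep (SD, n = 3 each), 25.2 ± 14.2 in day 6 and 75.17 ± 13.6 in YAP1on tumors (SD, n = 4 each), and also fell in all 3 comparisons.

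Cyp2f2 (ENSMUSG00000052974, chr7:27119955-27133660), a periportal P450, had 14 regions among 62 liver intervals, none of them overlapping YAP1on. The nearest was 418 bp from its start site. Its RNA was 21450, 21800 and 25420 in FAH liver and 830.1, 674.9 and 3401 in hbHep. Day 6 tumors ran from 276.3 to 765 and YAP1on tumors from 65.71 to 287.1, so that the highest hbHep sample was still far under the lowest FAH liver. The log2 differences from FAH liver were -4.20 (SE 0.56, limma adjusted p = 3.66e-05), -5.60 (SE 0.52, adjusted p = 3.2e-07) and -7.55 (SE 0.52, adjusted p = 7.5e-09). Reads of Cyp2 genes can be shared between paralogs, so the level of a single member is uncertain.

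Glutamine and glycine breakdown followed. Gls2 (ENSMUSG00000044005, chr10:128194635-128210004), the liver glutaminase that frees ammonia for the urea cycle, had 7 regions among 88 liver intervals. Its RNA was 7352, 6746 and 6983 in FAH liver, 675.7, 324.3 and 1743 in hbHep, 550.6 to 921 in day 6 and 284.1 to 470.6 in YAP1on tumors. No hbHep or tumor sample reached the FAH livers (log2 difference of hbHep -3.27, SE 0.41, limma adjusted p = 1.9e-05). Gldc (chr19:30098441-30175441), the decarboxylase of the glycine cleavage system, had 6 regions among 49 liver intervals, the nearest 1264 bp from its start. Its RNA was 15280, 11510 and 13030 in FAH liver, 1124, 3797 and 3822 in hbHep, 695.6 to 1248 in day 6 and 499.9 to 951.6 in YAP1on tumors. The hbHep fall was -2.38 on the log2 scale (SE 0.38, limma adjusted p = 0.00018).

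The other 9 periportal genes with a region had 1 to 4. Hal, which begins histidine breakdown, Arg1, the last enzyme of the urea cycle, Fbp1, of gluconeogenesis, and Etnppl, a phospho-lyase of ethanolamine phosphate, had 4 each; the nearest to Etnppl was 4964 bp from its start. Hsd17b13, a lipid droplet protein, had 1 at 1046 bp from its start, and Pck1, Asl and Ctsc had 1 each. In hbHep all 14 periportal genes with a region were lower than in FAH liver, by -1.10 (Ctsc) to -4.20 (Cyp2f2) on the log2 scale. In day 6 tumors 12 of the 14 were lower, with Pck1 (-0.66, limma adjusted p = 0.0813) and Ctsc (-0.47, limma adjusted p = 0.0676) short of the threshold, and in YAP1on tumors 13, with Ctsc at -0.07. Periportal genes without a region also moved: over the whole list 21 of 22 were lower in hbHep (median -2.40), against a background of 17.0% lower and 20.0% higher of all 17994 genes tested. Hsd17b6, with 0 of 15, was lower by -4.48 (limma adjusted p = 8.5e-07), and Igfals, with 0 of 31, by -1.99 (limma adjusted p = 3.29e-06). Cdh1, with 0 of 20, was at -0.35 (limma adjusted p = 0.432). In day 6 tumors 17 of 22 were lower (background 30.8% lower, 31.8% higher), and in YAP1on tumors 19 of 22 (background 33.3% lower, 34.6% higher).

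Pericentral RNA went the other way in hbHep. Of 26 genes 20 were higher (76.9%) and 2 lower (7.69%), with a median of 2.51, beside 20.0% and 17.0% of all genes tested. In day 6 tumors 16 were higher (61.5%) and 5 lower (19.2%), beside 31.8% and 30.8%. In YAP1on tumors 9 were higher (34.6%) and 10 lower (38.5%), near the 34.6% and 33.3% of all genes tested. Glul was 4964 ± 848 in FAH liver and 64600 ± 21200 in hbHep (SD, n = 3 each), with every hbHep sample above every FAH liver (log2 difference 3.65, SE 0.35, limma adjusted p = 1.46e-06). None of its 105 liver intervals was missing from any OFF list. Tnfrsf19, a Wnt-responsive receptor and the only pericentral gene near a region, was 55.42, 52.71 and 74.01 in FAH liver and 547.4, 328.4 and 733.1 in hbHep (log2 difference 3.06, SE 0.24, limma adjusted p = 2.05e-07). Its region was 50 bp wide, among 35 liver intervals, and 49272 bp from its start.

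**Figure D3:**
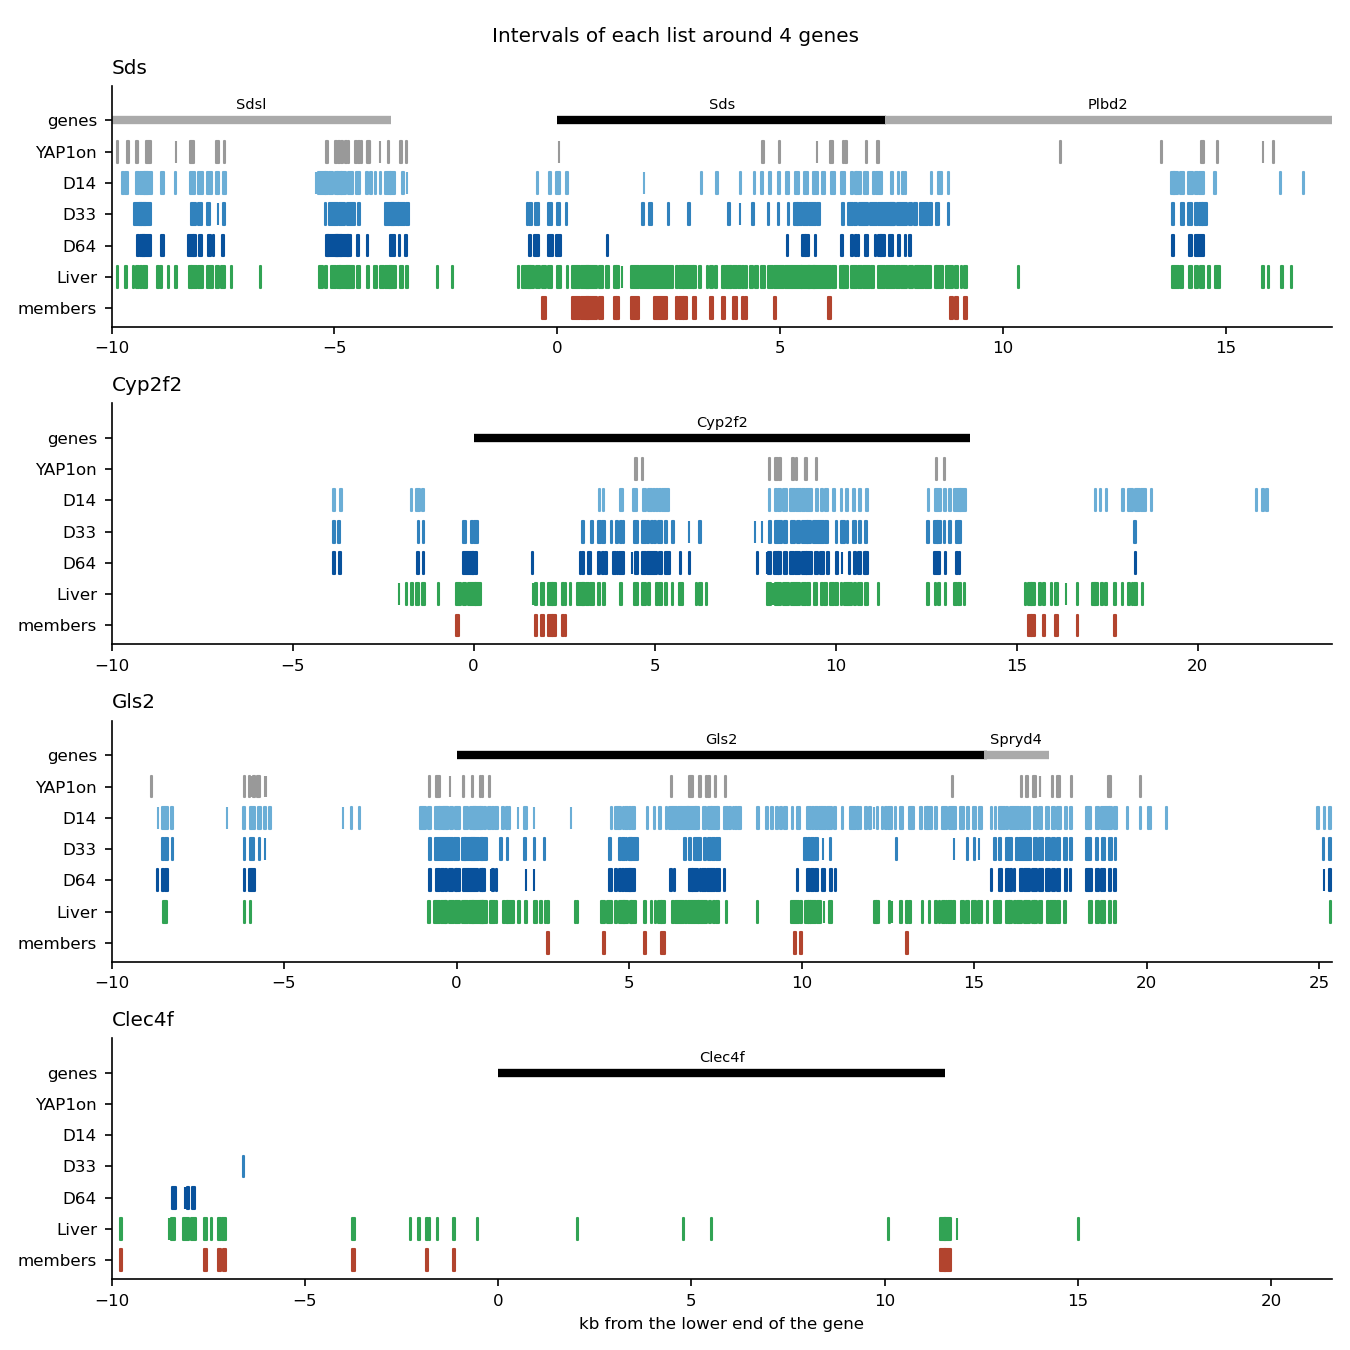
Intervals of any width in each list within 10 kb of Sds, Cyp2f2, Gls2 and Clec4f, in kb from the lower end of the gene. Rows give the genes, the 5 lists and, in red, the regions described here (very narrow intervals are drawn slightly wider than scale). Along Sds itself the liver row has few gaps, while the OFF rows are sparse between 0 and 4 kb; around Clec4f the D14 and YAP1on rows are empty.

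Outside the lists, Cth had the most regions after Sds, Sdsl and Plbd2. Cth (ENSMUSG00000028179, chr3:157894248-157925081), which makes cysteine from cystathionine, had 22 regions among 138 liver intervals. Of these intervals 47 lacked a D14, 32 a D33 and 94 a D64 overlap. Its RNA was 6798, 5405 and 5152 in FAH liver and 4127, 6413 and 4161 in hbHep, which overlapped (log2 difference -0.26, SE 0.19, limma adjusted p = 0.298). Day 6 tumors, at 1822 to 2456, and YAP1on tumors, at 802.5 to 1155, lay below both (-1.39, limma adjusted p = 6.53e-06, and -2.58, limma adjusted p = 5.58e-09). Cth was not lower in hbHep by the test, unlike Sds, although the difference between the genes was not tested. Without hbHep mouse 2, the hbHep difference was -0.47 and passed.

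Further genes were picked by name from the 77 with 5 or more regions. Aspg, an asparaginase, had 8 regions among 102 liver intervals, and its RNA was 3659, 2874 and 3172 in FAH liver and 149.8, 311 and 401 in hbHep (-3.60, SE 0.38, limma adjusted p = 4.18e-06). Kmo, of the tryptophan-to-NAD route, had 5 among 96 and was 7562 ± 1070 in FAH liver and 3173 ± 146 in hbHep (SD, n = 3 each; -1.24, limma adjusted p = 6.77e-06). Slc25a15, the mitochondrial ornithine carrier of the urea cycle, had 8 among 170. It was 15800 ± 1240 in FAH liver, 14060 ± 1480 in hbHep (SD, n = 3 each) and 4751 ± 625 in YAP1on tumors (SD, n = 4), with limma adjusted p = 0.416 for hbHep and 5.06e-08 for YAP1on tumors. Cmah, which makes a sialic acid that humans lack, had 7 among 193 and was lower in all 3 comparisons (-1.58, -2.59 and -3.56).

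**Figure D4:**
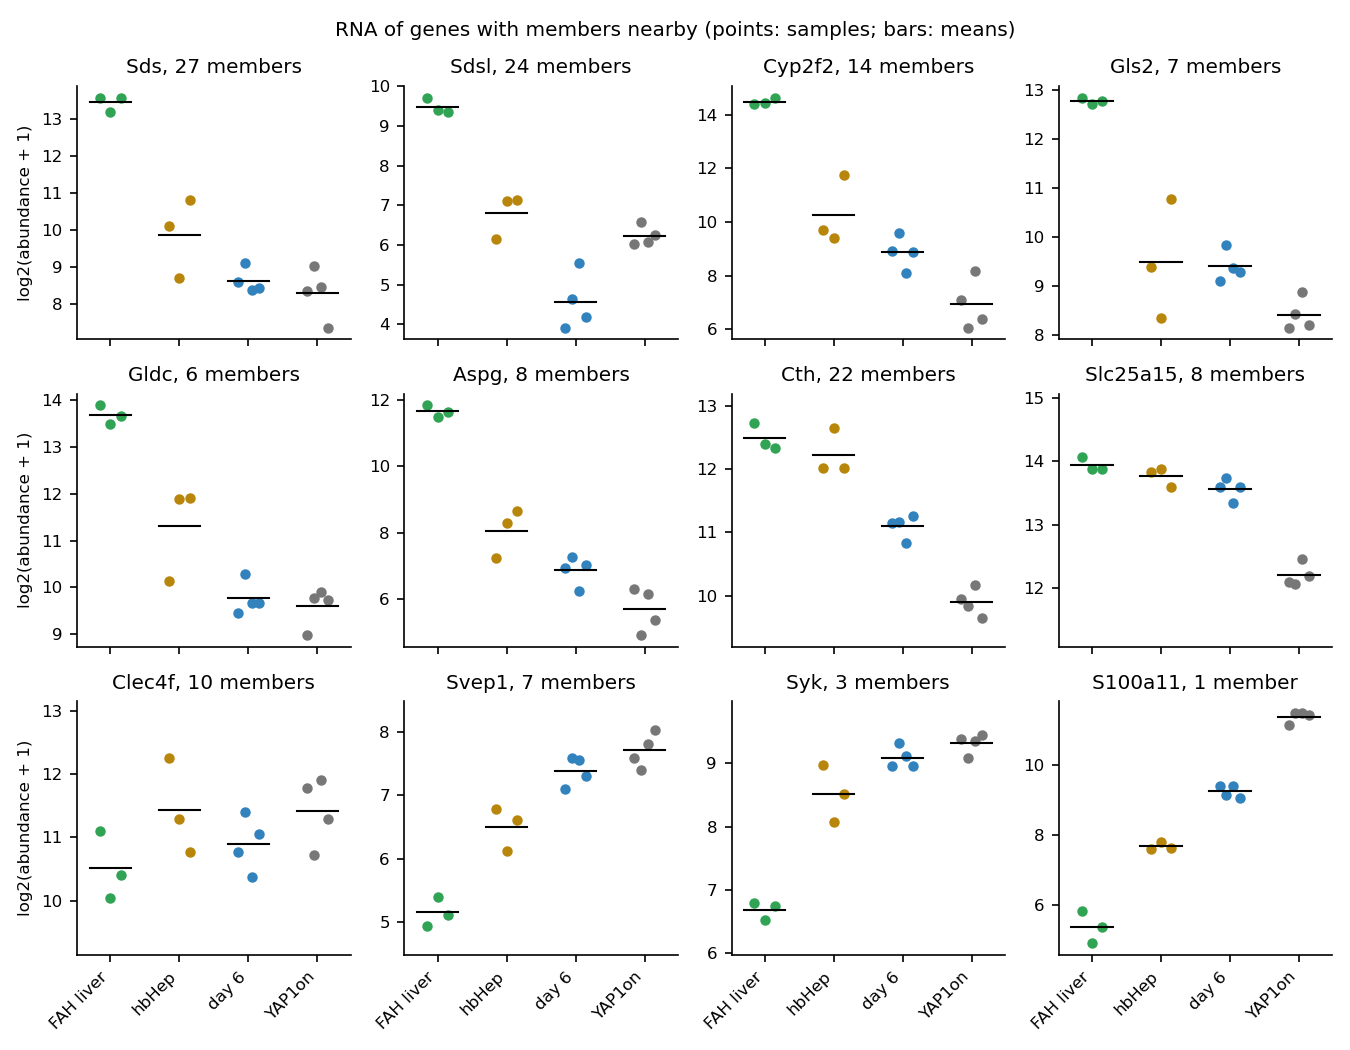
RNA of 12 genes with regions nearby, as log2(abundance + 1) in each sample (points) with the group mean (bar); each panel has its own axis and does not start at 0, and the title gives the number of regions within 10 kb. The first 6 genes have FAH liver above all other samples, Cth and Slc25a15 overlap between FAH liver and hbHep, Clec4f overlaps throughout, and Svep1, Syk and S100a11 have FAH liver lowest.

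Clec4f carried nearly all the regions near Kupffer markers. Of 85 liver intervals near the 15 Kupffer and macrophage markers, 11 were among the regions (12.9%), but 10 of the 11 belonged to Clec4f and the last lay beside C1qa, C1qb and C1qc, which neighbour each other. Clec4f (ENSMUSG00000014542, chr6:83644542-83656116) had 10 regions among only 13 liver intervals of at least 50 bp within 10 kb. Of the 10 regions, 8 lay more than 500 bp from any OFF interval. Covered bases were 1392 in liver, 0 at D14, 24 at D33, 242 at D64 and 0 in YAP1on. Its RNA did not fall: 2192, 1056 and 1349 in FAH liver, 4880, 2495 and 1739 in hbHep, 1324 to 2714 in day 6 tumors and 1682 to 3822 in YAP1on tumors. The groups overlapped, with log2 differences of 0.92 (limma adjusted p = 0.0724), 0.38 (limma adjusted p = 0.366) and 0.91 (limma adjusted p = 0.0351); the last lost the call in 7 of the alternatives run, such as without FAH liver 2 (0.67) or YAP1on tumor 3 (0.75). The hbHep difference passed without FAH liver 1 (1.21, limma adjusted p = 0.0384), without hbHep mouse 3 (1.25, limma adjusted p = 0.025) and under quantile normalization (1.04, limma adjusted p = 0.0487). Of the 15 markers 11 were higher (73.3%) and 1 lower (6.67%) in hbHep, beside 20.0% and 17.0% of all genes. Their summed abundance was 6131 to 11100 in FAH liver, 12890 to 34860 in hbHep, 21200 to 26830 in day 6 and 35170 to 48170 in YAP1on tumors, with no marker at 0 throughout a group. Whether the ATAC libraries differed in their share of Kupffer cells was not tested.

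Of 634 liver intervals near 16 endothelial markers, 14 were among the regions (2.21%), with 5 at Clec4g, a lectin of sinusoidal endothelium, 3 each at Dnase1l3 and Eng and 1 each at Kdr, Flt1 and Lyve1. Clec4g RNA was 2390, 1732 and 1809 in FAH liver and 1339, 1081 and 619.9 in hbHep, without overlap (-1.02, SE 0.30, limma adjusted p = 0.0145), and fell in both tumor groups. The hbHep call was lost without FAH liver 1 (-0.88, limma adjusted p = 0.0645) and without hbHep mouse 3 (-0.70, limma adjusted p = 0.0771). Over the list 4 of 16 markers (25.0%) were lower and 1 higher (6.25%) in hbHep, beside 17.0% and 20.0% of all genes, and the summed abundance was 17090 to 18560 in FAH liver, 10780 to 18210 in hbHep, 13370 to 19840 in day 6 and 11270 to 14510 in YAP1on tumors. Rspo3, Svep1 and Ehd3 are in neither list and were picked by name from the genes with 5 or more regions. Rspo3, a Wnt amplifier made by central vein endothelium, had 6 regions among 10 liver intervals. Its RNA was 97.42, 88.1 and 105 in FAH liver and 114.9, 77.29 and 40.25 in hbHep (limma adjusted p = 0.363). Svep1, a large matrix protein, had 7 among 10 and was higher outside FAH liver: 34.87 ± 5.86 in FAH liver and 91.72 ± 20.8 in hbHep (SD, n = 3 each; 1.36, limma adjusted p = 0.000202), 168.4 ± 26.2 and 211.3 ± 40.0 in the tumors (SD, n = 4 each). Ehd3, an endocytic ATPase, had 10 among 22, and its RNA overlapped between FAH liver and hbHep (2352 ± 540 and 1871 ± 414, SD, n = 3 each).

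The other lists had few regions. Hepatocyte transcription factors had 6 among 2795 liver intervals (0.215%), 1 each at Foxa1, Nr1i2, Prox1, Esr1, Cux2 and Zhx2; none of these 6 genes passed in hbHep. Hepatocyte secreted proteins had 2 among 2134 (0.0937%), at Serpina1a and F9. Sex-biased liver genes had 2 among 530 (0.377%), at Cux2 and Cyp7b1, although 30.9% of these intervals had no D14 overlap. YAP1 targets had 7 among 752 (0.931%), at Ptpn14 (2), Lats2, Nt5e, Nuak2, Fjx1 and Wwc1. Of these 6 genes 2 were higher in hbHep and 5 in YAP1on tumors (33.3% and 83.3%). Of the 18 targets tested without a region 9 and 13 were higher, beside 20.0% and 34.6% of all genes. The lists of T, NK and B cells (near Cd79a and Ptprc), neutrophils (Elane), stellate cells (Hgf) and cholangiocytes had 1 or 2 regions each, and red blood cell precursors had 0. In RNA, 8 of 14 markers of T, NK and B cells tested (57.1%) and 4 of 10 of neutrophils (40.0%) were higher in hbHep, beside 20.0% of all genes. The part of these cells in the values below was not tested.

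Over all genes near a start-site region, RNA in hbHep was higher more often than lower. Of 240 genes with a region within 1 kb of a start site, 207 passed the filter on low values. In hbHep 28 were lower (13.5%) and 58 higher (28.0%), with a median log2 difference of 0.12. With only the hbHep and FAH liver samples in the fit, 10.1% were lower and 16.9% higher, beside 9.99% and 12.6% of all genes tested in that fit. There 12.0% and 13.0% of genes with any liver interval at a start site were lower and higher. In the fit of all groups the background over all genes tested was 17.0% and 20.0%, and over the 10170 genes with any liver interval at a start site it was 20.4% and 19.9%. In day 6 tumors 49 were lower (23.7%) and 80 higher (38.6%). The shares were 30.8% and 31.8% for all genes tested and 36.2% and 28.7% for genes with any liver interval there. In YAP1on tumors 62 were lower (30.0%) and 89 higher (43.0%), against 33.3% and 34.6% of all genes and 38.7% and 32.0% of those with any liver interval. The shares leave out 33 of the 240 genes, which were missing from the RNA table or did not pass the filter.

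Only 25 genes had a region within 1 kb of a start site and no OFF interval there, and 15 of them were tested. In hbHep 1 was lower and 1 higher. Gramd1c, a sterol transfer protein, was 2160, 2029 and 1715 in FAH liver and 1212, 752 and 1389 in hbHep (-0.86, SE 0.26, limma adjusted p = 0.0192). The call was lost without FAH liver 1 (limma adjusted p = 0.0661) and without hbHep mouse 2 (limma adjusted p = 0.096). Its groups did not overlap, and it was lower again in day 6 (-1.92) and YAP1on tumors (-2.57). Cd22, a B-cell lectin, was 12.73, 37.6 and 26 in FAH liver and 87.03, 65.12 and 52.48 in hbHep (1.48, SE 0.36, limma adjusted p = 0.00476). In the tumors Cdh18, a cadherin, was also lower, at -1.70 in day 6 and -2.38 in YAP1on tumors. Ank2, a spectrin adaptor, was higher at 2.43 and 3.39, and Dtx1, a Notch regulator, and Wdr86 were higher in both. Mefv, the inflammasome protein pyrin, was higher in YAP1on tumors (1.91, limma adjusted p = 0.000306).

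A few of the 28 lower promoter genes are described here, named after their values were seen. Slc13a2, whose promoter is printed above, was 116.7, 163.2 and 200.6 in FAH liver and 1.723, 7.053 and 7.482 in hbHep (-4.79, SE 0.55, limma adjusted p = 8.41e-06). YAP1on tumors ran from 1.646 down to a library listed at 0. Ftcd, which ends histidine breakdown, was 21470, 18330 and 20340 in FAH liver and 2641, 3057 and 4700 in hbHep (-2.57, SE 0.20, limma adjusted p = 2.05e-07). Srebf1, a regulator of lipid synthesis, fell by 1.29 and the calpain Capn8 by 4.53 on the log2 scale. Mup17, a major urinary protein, fell by 7.39, with reads that may be shared among near-identical Mup genes.

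From the 58 higher promoter genes, the following were also named after their values were seen. Syk, a kinase downstream of immune receptors, was 109.5, 90.58 and 106 in FAH liver and 500.1, 267.3 and 363.8 in hbHep, rising to 540.1 to 694 in YAP1on tumors (hbHep 1.83, SE 0.19, limma adjusted p = 3.51e-06). Tlr13 was 46.38, 28.32 and 35.09 in FAH liver and 283.6, 136 and 118.1 in hbHep (2.18, SE 0.27, limma adjusted p = 1.58e-05). Btk (1.73), Nfam1 (1.86), Pik3cg (1.29) and Igsf6 (1.25) were higher as well. S100a11 was 56.31, 29.41 and 40.79 in FAH liver, 194.9, 220.6 and 195.4 in hbHep and 2238 to 2850 in YAP1on tumors. Ren1, renin, was 77.29 ± 9.39 in FAH liver and 1872 ± 242 in hbHep (SD, n = 3 each; 4.58, limma adjusted p = 1.45e-09), but lower in day 6 tumors (-2.03). A liver region at a promoter thus stood beside lower and higher RNA alike. The macrophage sums above moved in the same direction as Syk, Tlr13, Btk, Nfam1, Pik3cg and Igsf6, and their part in these values was not tested.

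The shares of lower and higher genes had no steady order over the number of regions nearby. Of the 74 tested genes with 5 or more regions within 10 kb, 19 were lower (25.7%) and 17 higher (23.0%) in hbHep, beside 17.0% and 20.0% of all genes tested. In day 6 tumors 28 were lower (37.8%) and 24 higher (32.4%), beside 30.8% and 31.8%. In YAP1on tumors 35 were lower (47.3%) and 22 higher (29.7%), beside 33.3% and 34.6%. With 3 or 4 regions, 19.7% were lower and 33.2% higher in hbHep, with 2 regions 13.8% and 27.0%, with 1 region 19.3% and 25.5%, and with 0 regions 18.0% and 19.8%. The median number of liver intervals per gene rose from 15 to 63.5 over the same bins. Of the 74 genes, 15 fell (20.3%) and 6 rose (8.11%) at least 2-fold in hbHep, beside 5.44% and 12.7% of all genes tested. In day 6 tumors 19 fell and 10 rose (25.7% and 13.5%, beside 14.9% and 19.9%), and in YAP1on tumors 27 fell and 11 rose (36.5% and 14.9%, beside 18.5% and 23.5%). Those that fell included Cyp2f2, Aspg, Sds, Gls2, Sdsl and Gldc, and those that rose included Lrmda (3.47), the glycolytic enzyme Hk2 (1.78), Svep1 (1.36) and the repressor Zeb2 (1.24). These shares are descriptions: genes with many liver intervals have more chances of a region, and Sds, Sdsl and Plbd2 share theirs.

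**Figure D5:**
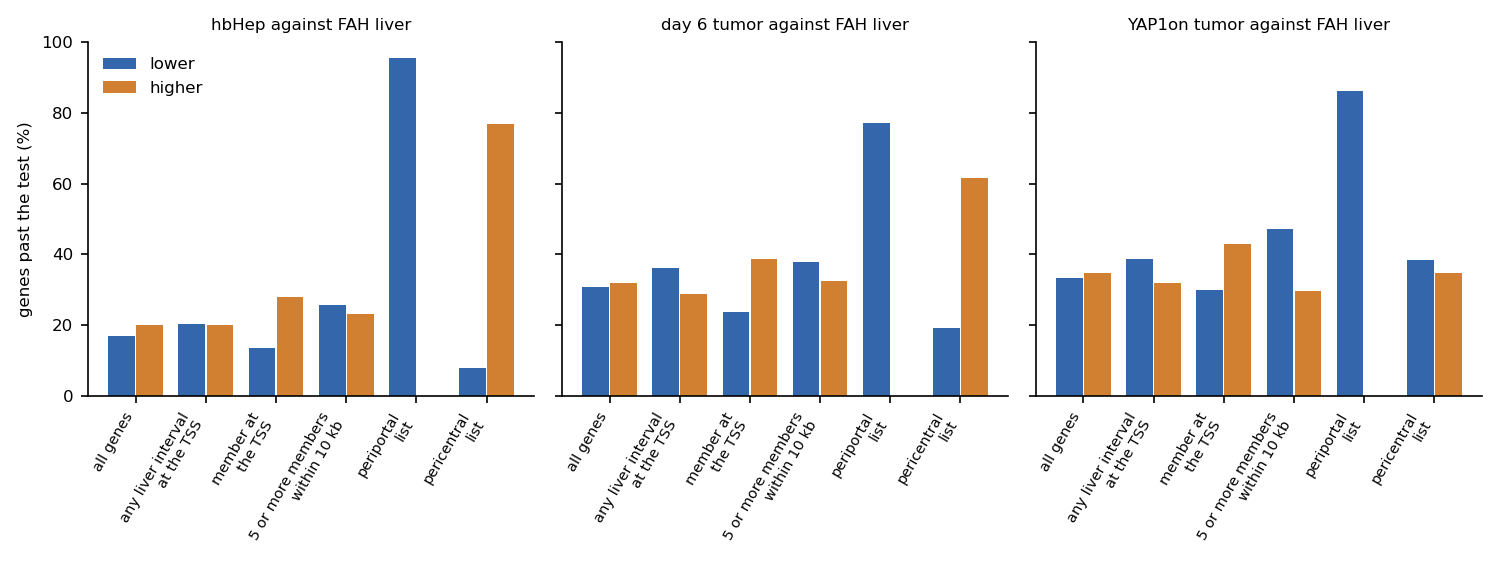
Percentage of tested genes that were lower (blue) or higher (orange) than FAH liver by limma at an adjusted p of 0.05, in the 3 comparisons, for all genes, genes with any liver interval or with a region within 1 kb of a start site, genes with 5 or more regions within 10 kb, and the periportal and pericentral lists. Genes with a region at the start site have more higher than lower calls in each panel (28.0 against 13.5% in hbHep), while 95.5% of the periportal list is lower in hbHep.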

How the data were processed

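Per the submitters' processing notes, ATAC reads were handled with bcl2fastq, cutadapt, BWA, SAMtools and Picard on mm10, and RNA reads with kallisto 0.45.0 and sleuth, after bcl2fastq, on GRCm38.p6; for the intervals, the sources used here name no caller or threshold. The deposited interval lists hold positions and widths only (1 library a group, no score or depth used), so regions are described without a test. The deposited RNA values are the authors' scaled reads per base, a signal per gene, with depth unknown; 0 columns belonged to no sample. Between 21065 and 25605 genes were above 0 in a library.

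From these values, 17 libraries were rescaled by the median of ratios (factors 0.9449 to 1.079), and repeat libraries of an hbHep mouse entered as their mean, which gave 14 samples. A gene was tested if its abundance reached 10 in at least 3 samples. limma 3.58.1 (R 4.3.3, trend on, all 4 groups in 1 fit) tested log2(abundance + 1) against FAH liver, adjusted by Benjamini-Hochberg, called below 0.05; such fold changes understate the change of low genes. In simulated data, 48 of 100 genes changed by 1 and 78 of 100 changed by 2 on the log2 scale were recovered for hbHep. There only a few of the 17994 genes were changed, and all samples were drawn as independent. Recovery in the real fit can therefore differ. The 4 tumors of a group carry 1 mouse code, and nothing says that they came from separate animals. The p-values thus measure the spread between these samples. As all groups share 1 estimate of the spread, the p-values of hbHep also rest on the spread between tumors. With only hbHep and FAH liver in the fit, 9.99% of all genes tested were lower and 12.6% higher, against 17.0% and 20.0%.

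Regions were linked to RefSeq genes (GRCm38.p6) with Python 3.11.15. Start sites were known for 17273 of 21627 protein-coding genes and for none on chromosome 18, so lists used the gene with 10 kb on each side. Gene names in the comparisons followed a rule. It took tested genes with a region and no OFF interval within 1 kb of the start. Of these, the 8 largest falls and rises without overlap of groups were named. All zonation genes with a region nearby and up to 3 genes of other lists were to follow. For hepatocyte transcription factors, YAP1 targets, endothelial and Kupffer markers, all genes with a region were named, which is more than 3 each. The 10 widest regions were added, as were the 5 genes with most region bases among those with a known start site. Other genes were named after their values were seen, as said beside them. The regions and lists were chosen with earlier results of these data known. No genome was used, so motifs were searched in RefSeq promoter windows in place of the regions, and base composition was not analysed here. Alternatives covered scaling, filter, pseudocount, link distance, the rule itself, the replicate block and each replicate left out. Some items are not reported here.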

Additional observations from a re-analysis of the deposited data

Results flagged for a closer look

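Of 118 groups of 4 tumors examined for a selection of 59 genes, 5 held a sample far from the other 3, where chance gives about 1 in 20. In YAP1on tumors, Pigr, the carrier of IgA into bile, was 1434 in tumor 1 and 2679 to 2855 in the others. Tnfrsf19 was 508.4 in the same tumor and 725.2 to 752.5 in the others. Ftcd was 2046 in YAP1on tumor 3 and 1589 to 1646 in the others. In day 6 tumors, tumor 2 stood apart both for Mefv, at 43.67 against 19.78 to 22.89, and for Cmah, at 699.1 against 382.8 to 436.3. Each of the 5 lay on the same side of all FAH livers as the other samples of its group.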

How the results depend on the processing

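The number of regions depended on the rule: 17 remained at 150 bp or wider, 911 with no OFF interval within 500 bp, 9580 when only OFF intervals of 50 bp or wider counted, 7463 without the D14 list and 6651 without the D64 list. The share within 1 kb of a start site was 0% at 150 bp or wider and 4.04% with no OFF interval within 500 bp, and the share that overlapped YAP1on was 19.0% against wide OFF intervals only and 22.7% without the D14 list. Of promoter genes in hbHep, 20.4% were lower with a link of 10 kb and 16.9% were higher with only the groups compared in the fit. With no OFF interval within 1 kb of the start, 6.67% were lower and 6.67% higher in hbHep and 13.3% lower in both tumor groups. With none within 500 bp of the region, 5.26% and 5.26% were lower and higher in hbHep and 15.8% lower in YAP1on tumors. These sets hold only 15 and 19 tested genes. Leaving out 1 replicate gave 10.1 to 13.0% lower and 21.3 to 29.0% higher in hbHep, 20.8 to 23.7% and 35.3 to 39.6% in day 6 tumors, and 26.1 to 29.0% and 40.1 to 42.5% in YAP1on tumors. The replicate numbers do not pair the samples (correlation of same-numbered deviations -0.0956 to 0.185). With the replicate block the shares lower and higher were 10.1% and 18.8% in hbHep, 24.2% and 36.7% in day 6 tumors, and 27.1% and 39.6% in YAP1on tumors. Of the values of single genes under all alternatives, 2330 kept the call or its absence, and 58 lost and 27 gained the call. Among the 2330, a sign could still turn where neither fit gave a call, and such turns were not counted apart. A further 4 turned sign with a call in the main or the alternative fit, all under quantile normalization. They were Pck1 (0.27) and Cyp2e1 (0.51) in YAP1on tumors and Apof (0.06) and Slc25a15 (0.43) in day 6 tumors, and the cause was not tested. No promoter gene was left at 150 bp or wider, and motifs in the intervals themselves were not run. The depth behind an interval or an RNA value is unknown, so an interval missing from a list was not detectable there, which does not show that it is absent.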
